A study of Rattus norvegicus with 30 samples.

Results

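The question addressed here was whether the transcript response of the rat heart to ex vivo perfusion differed between 2 diets. All 30 arrays of the series entered, as 6 groups of 5 biological replicates, with 1 array for each biological sample. Left ventricles came from male Sprague Dawley rats aged 16 to 18 weeks. Over 8 to 10 weeks the sucrose-fed rats received a diet high in sucrose, which the labels describe as a means of inducing insulin resistance, and chow-fed rats had eaten rodent chow. In each diet, hearts were perfused with mannitol, perfused with glucose, or frozen without perfusion. Every rat was anaesthetised with chloral hydrate and every heart was placed in ice-cold Krebs-Henseleit buffer on excision, so both steps were shared by the non-perfused hearts. Perfused hearts then pumped outside the body for 60 min, at normal temperature and oxygen, in the working mode. As fuels the buffer held hydroxybutyrate at 10, propionate at 2 and acetoacetate at 1 mmol/L, beside calcium at 2.5 mmol/L and either glucose or the osmotic control mannitol at 25 mmol/L. Blood was absent and the buffer differed from plasma in its fuels, so the change with perfusion covers all of these steps at once.

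The interaction was defined as the change with perfusion in sucrose hearts minus the change with perfusion in chow hearts, where each change was the mean of the mannitol and glucose groups minus the non-perfused group. It was computed for 18333 expressed genes out of 26785 on the array, of which 11304 had a symbol. Levels are log2 intensities relative to the 75th percentile of their own array, which was set to 0, and levels of different genes are not compared. A positive interaction means that the sucrose value of the change lay above the chow value. A gene was called where the adjusted p of the limma fit was under 0.05, and "rose" and "fell" are used only for called changes.

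As background, a working heart moves readily between fatty acids, ketone bodies, glucose and lactate as fuels. A high-sucrose diet in rats is used as a model of insulin resistance, in which the heart muscle takes up less glucose in response to insulin and leans more on fat. Excision and reperfusion bring on immediate-early genes, chemokines and stress genes within an hour, and wash blood out of the coronary vessels. An interaction of diet and perfusion would mean that these changes, or the metabolic ones, had a different size in hearts of sucrose-fed rats. It can lie in the perfused or in the non-perfused levels. Insulin resistance itself is not among the values used here.

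Between 48.8% and 75.4% of the probes on an array were well above background, and 2 arrays of one group correlated at 0.9797 to 0.9946 across genes. On 4 arrays the SD of the negative controls was above 8 intensity units, namely sucrose mannitol replicate 5, sucrose non-perfused replicates 1 and 5 and chow non-perfused replicate 2, which are called the 4 noisy arrays here. The arrays lay on 5 slides, of which 4 held every group and the remaining one held only sucrose mannitol replicate 1. Of the perfused arrays, 9 of 10 in sucrose hearts and 5 of 10 in chow hearts lay in row 2 of their slide, while all non-perfused arrays lay in row 1. The imbalance between the diets lies in the mannitol groups, since all glucose arrays of both diets lay in row 2. Cardiomyocyte markers were above background on all arrays for 10 of 10 genes, and their summed level on the log2 scale ran from 11.62 to 12.38 in sucrose hearts and from 11.86 to 12.49 in chow hearts.

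No gene passed the threshold for the pooled interaction (limma, 0 of 18333 genes, 0% called). The smallest adjusted p was 0.521, and 1039 genes (5.67%) had an unadjusted p under 0.05. The median interaction over all genes was -0.006, and the interquartile range was -0.113 to 0.118. The median standard error was 0.158, and the 95% interval reached, at the median, 0.324 to either side of the estimate. An interval that lay wholly within 1 log2 unit of 0, and so left no room for a 2-fold difference in response, was found for 15853 genes (86.5%). For 11754 genes (64.1%) the interval also left no room for a 1.5-fold difference. The bound was tighter for brighter genes. Genes were split by mean level into 3 classes of 6111. In the brightest class the interval reached 0.23 to either side at the median and 98.4% of intervals lay within 1 log2 unit, in the middle class 0.29 and 95.4%, and in the dimmest class 0.59 and 65.6%.

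The perfusion response itself was large in both diets. All non-perfused arrays lay in row 1 of their slide, against 9 of 10 sucrose and 5 of 10 chow perfused arrays in row 2. Perfusion is thus partly confounded with row in these changes, more so in sucrose hearts. In sucrose hearts 3087 genes changed (16.8% called), 1468 upward (8.01%) and 1619 downward (8.83%). In chow hearts 2795 genes changed (15.2% called), 1402 upward (7.65%) and 1393 downward (7.6%). The split differed in the authors' values: 47.6% of the sucrose calls and 50.2% of the chow calls were upward here, against 86.2% and 67.7% there. With quantile normalization the shares were 52.3% and 51.2%. The cause of the difference was not tested. The sucrose and chow changes share no array, and across genes, which are not independent replicates, their Pearson correlation was 0.8 and their Spearman correlation 0.528. A total of 1062 genes rose in both diets, which was 72.3% of the sucrose rises and 75.7% of the chow rises. Their median change was 0.60 in sucrose hearts and 0.61 in chow hearts. A further 778 genes fell in both diets, which was 48.1% of the sucrose falls and 55.9% of the chow falls, with a median of -0.36 in each diet. Only 1 feature, a transcript without a symbol, was called in opposite directions, at 0.85 in sucrose hearts and -0.61 in chow hearts. That call and its opposite did not both hold without the 4 noisy arrays, where 791 genes rose in both diets, 471 fell in both and 0 went opposite ways.

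**Figure D1:**
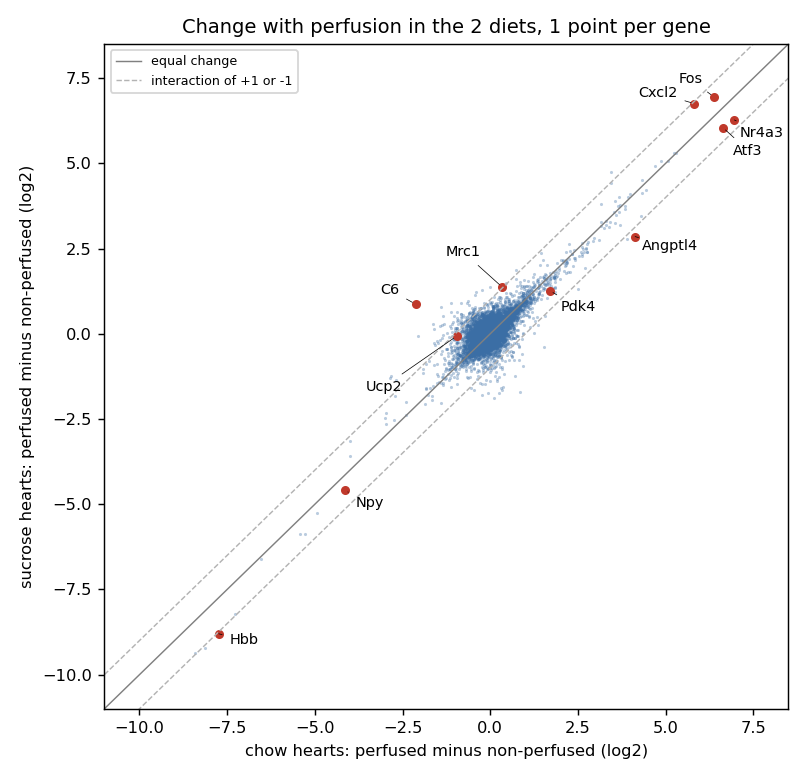
Change with perfusion (log2, mean of both buffers minus non-perfused) in sucrose hearts on the vertical axis and in chow hearts on the horizontal axis, 1 point for each of 18333 genes, with 11 named genes in red. The solid line marks equal change and the dashed lines an interaction of 1 log2 unit either way. Fos (6.95 in sucrose, 6.37 in chow) and Atf3 (6.05 in sucrose, 6.63 in chow) lie between the dashed lines, and Hbb (-8.80 in sucrose, -7.74 in chow) lies just past one of them.

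Among the 1062 genes that rose in both diets, the median interaction was -0.01 and 44 (4.14%) had an unadjusted p under 0.05, against 5.67% of all tested genes. The interval lay within 1 log2 unit for 1003 of them (94.4%). Choosing genes by calls in both diets on the same arrays favours a small interaction and narrow intervals, so these shares are a description. The fitted interaction passed 1 log2 unit in size for 4 of them, namely Angptl4, Eid3, a transcript without a symbol and Fosl1, whose size was not measured because no chow non-perfused array was well above background. Of 221 genes that rose at least 2-fold in both diets, with a median change of 1.65 in sucrose hearts and 1.71 in chow hearts, the interval lay within 1 log2 unit for 175 (79.2%). Of 48 genes that fell at least 2-fold in both diets, with a median of -1.54 in sucrose hearts and -1.49 in chow hearts, this held for 22 (45.8%), so fewer of the strong falls had intervals within that bound. Of the 778 genes that fell in both diets, the globin genes Hbb and Hbe2 had an interaction past 1 log2 unit.

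Genes called in one diet alone were also examined for their interaction. There were 1246 genes called in sucrose hearts only, with a median change of -0.22 in sucrose hearts and -0.06 in chow hearts. There were 954 called in chow hearts only, with a median of -0.10 in sucrose hearts and -0.24 in chow hearts. None of these passed the test of the interaction, so a call in one diet and not in the other is not shown to be a difference between the diets. Their unadjusted p was under 0.05 in 21.8% and 18.9% of cases, but the choice by calls from the same arrays raises these shares.

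The 4 slides that carried all 6 groups each gave a value of the interaction from their own arrays. Across genes, the interaction profiles of 2 slides correlated at -0.078 to 0.127, with a median of 0.021 over the 6 pairs. The highest value, 0.127, came from slides 2 and 4, the only pair without any of the 4 noisy arrays. The interaction is a difference of 2 changes and carries more noise than their mean, so a low correlation does not show that it is absent. The perfusion change averaged over the diets correlated at 0.57 to 0.716 between slides, with a median of 0.69. The diet difference in perfused hearts correlated at 0.032 to 0.164 and that in non-perfused hearts at -0.058 to 0.126. The interaction had the same sign on all 4 slides for 2721 genes (14.8%), against 7376 genes (40.2%) for the perfusion change. The arrays of one slide share its residual shift, which cancels in these differences. A shift tied to slide row would not cancel in the perfusion change.

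**Figure D2:**
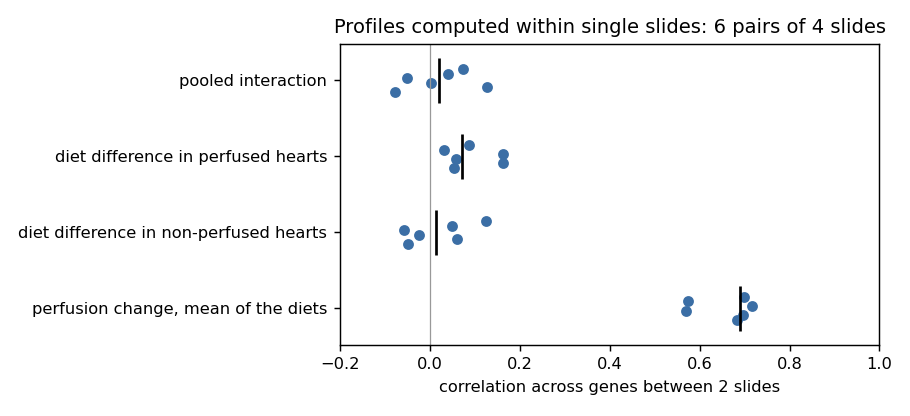
Correlation across genes between profiles computed within single slides, 6 pairs of 4 slides for each of 4 contrasts, with the median as a line. The interaction pairs lie between -0.078 and 0.127 and the perfusion pairs between 0.57 and 0.716. The interaction pair at 0.127 is the only one without any of the 4 noisy arrays.

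Most of the immediate-early genes, which are transcribed without new protein synthesis, and most of the inflammatory mediators rose in each diet. Of 39 measured immediate-early genes, 36 rose in sucrose hearts and 36 in chow hearts, beside 8.01% and 7.65% of all genes, with a median change of 2.17 in sucrose hearts and 2.16 in chow hearts, and the median interaction was 0. None was called for the interaction, and 0 had an unadjusted p under 0.05. Fos, an AP-1 transcription factor gene, ran from 2.46 to 3.79 with a median of 3.07 in sucrose perfused hearts. It was at -1.74, -5.33, -4.12, -2.5 and -5.52 in sucrose non-perfused hearts. In chow perfused hearts it ran from 1.96 to 3.64 with a median of 3.53, and in chow non-perfused hearts it was at -3.29, -5.4, -0.05, -3.94 and -2.78. Perfused and non-perfused arrays did not overlap in either diet, and the wide spread lay in the non-perfused hearts. The Fos change was 6.95 in sucrose hearts and 6.37 in chow hearts, and the interaction of 0.58 had an interval from -1.11 to 2.26. It was 0.10 in the authors' values, 1.33 without the 4 noisy arrays and between -0.31 and 1.2 on leaving out each array, the lowest without chow non-perfused replicate 3 and the highest without chow non-perfused replicate 2. The stress-induced transcription factor gene Atf3 changed by 6.05 in sucrose hearts and 6.63 in chow hearts, with an interaction of -0.58 (SE 0.48). The nuclear receptor gene Nr4a3 changed by 6.27 in sucrose hearts and 6.96 in chow hearts (interaction -0.69, SE 0.62), but only 2 of 5 sucrose and 3 of 5 chow non-perfused arrays were well above background for it. Its interaction was 0.05 without sucrose non-perfused replicate 4. Egr1, a growth factor-induced transcription factor gene, changed by 5.08 in sucrose hearts and 4.86 in chow hearts (interaction 0.22, SE 0.49). Fosl1, which encodes another AP-1 member, was not well above background on any chow non-perfused array, and so the size of its interaction was not measured.

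Of 28 measured NF-kappaB targets and inflammatory mediators, 21 rose in sucrose hearts and 21 in chow hearts, beside 8.01% and 7.65% of all genes. The median change was 1.59 in sucrose hearts and 1.79 in chow hearts, and the median interaction was -0.04. Cxcl2, a chemokine gene whose product attracts neutrophils, ran from -0.06 to 3.83 with a median of 0.80 in sucrose perfused hearts. It was at -5.12, -6.07, -5.97, -5.31 and -5.94 in sucrose non-perfused hearts, where 2 of 5 arrays were well above background. It ran, in chow perfused hearts, from -0.08 to 1.42 with a median of 0.68, and in chow non-perfused hearts it was at -5.51, -4.65, -4.2, -5.65 and -5.46. The perfused hearts of both diets overlapped almost fully, apart from sucrose glucose replicate 1 at 3.83. The change was 6.75 in sucrose hearts and 5.82 in chow hearts, and the interaction was 0.94 (SE 0.54, adjusted p = 0.857 in limma). The cytokine gene Il6 changed by 2.44 in sucrose hearts and 2.29 in chow hearts (interaction 0.15, SE 0.34), with 2 of 5 non-perfused arrays well above background in each diet, so these sizes rest partly on levels at the limit of detection. The monocyte-attracting chemokine gene Ccl2 changed by 3.74 in sucrose hearts and 3.64 in chow hearts (interaction 0.09, SE 0.36). Birc3, an inhibitor of apoptosis induced by NF-kappaB, rose by 1.39 in sucrose hearts and 1.85 in chow hearts, with an interaction of -0.47 (SE 0.21, adjusted p = 0.857).

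Gdf15, Hmox1 and Nppb rose in both diets. Gdf15, which encodes a stress-induced hormone, changed by 4.00 in sucrose hearts and 3.92 in chow hearts (interaction 0.08, SE 0.41), where 3 of 5 sucrose and 4 of 5 chow non-perfused arrays were well above background. Hmox1, whose enzyme degrades heme, changed by 0.93 in sucrose hearts and 1.13 in chow hearts (interaction -0.19, SE 0.35). Nppb, the gene of B-type natriuretic peptide, changed by 0.97 in sucrose hearts and 1.26 in chow hearts (interaction -0.29, SE 0.40). Of 22 genes of the integrated stress response, 10 rose and 2 fell in sucrose hearts, beside 8.01% and 8.83% of all genes. In chow hearts 9 rose and 1 fell, beside 7.65% and 7.6% of all genes, and the median interaction was -0.02. Trib3, a pseudokinase of that response that binds AKT, rose by 0.66 in sucrose hearts and was at -0.10 in chow hearts, with an interaction of 0.76 (SE 0.29, adjusted p = 0.857), or 0.34 without the 4 noisy arrays. The median interaction was -0.07 for 14 heat shock genes, -0.08 for 14 genes of the unfolded protein response and -0.05 for 15 clock genes. In the authors' values the same lists gave 0.09, 0.03 and 0.02, and the integrated stress response 0.09. The median over all genes was 0.088 in those values and -0.006 here.

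Fuel genes were the group in which a diet difference would be looked for first. Of 29 fatty acid oxidation genes and targets of the nuclear receptor PPAR, 3 rose and 1 fell in sucrose hearts, and 4 rose and 2 fell in chow hearts. Over all genes 8.01% rose and 8.83% fell in sucrose hearts, and 7.65% rose and 7.6% fell in chow hearts. The list's median interaction was -0.05, with 0.00 after quantile normalization and 0.08 in the authors' values, where that of all genes was 0.088. Of the 29, 26 had an interval within 1 log2 unit, beside 86.5% of all genes. Enzyme genes of fatty acid oxidation with values close to 0 included Acadm (-0.01, SE 0.10), Hadhb (-0.03, SE 0.08), Cpt1b (-0.04, SE 0.09) and Acadl (0.00, SE 0.11). The 5 members farthest from 0 were Angptl4, Ucp2, Pdk4, Acaa2 (-0.35, SE 0.18) and Mlycd (0.26, SE 0.12), and none passed.

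Angptl4, a PPAR target that encodes an inhibitor of lipoprotein lipase, ran from 0.70 to 3.75 with a median of 2.92 in sucrose perfused hearts. It was at -1.74, 0.23, 0.81, 0.62 and -1.39 in sucrose non-perfused hearts. Chow perfused hearts ran from 3.12 to 4.64 with a median of 3.91, and in chow non-perfused hearts it was at -1.15, -1, 0.9, 0.43 and -0.93. The non-perfused hearts of both diets covered the same range. The perfused hearts of sucrose rats reached lower than those of chow rats, with 2 of the mannitol arrays at 1.32 and 0.70, and the 10 arrays of each diet overlapped. Angptl4 rose by 2.85 (SE 0.41) in sucrose hearts and by 4.13 (SE 0.41) in chow hearts. The interaction was -1.28 with an interval from -2.47 to -0.09, an unadjusted p of 0.036 and an adjusted p of 0.857 in limma, so it did not pass. It was negative on all 4 slides, at -2.83, -0.75, -0.17 and -2.67, and was -1.50 with mannitol and -1.05 with glucose. Over all genes, 14.8% kept 1 sign on all 4 slides. The Angptl4 interaction ranged from -1.88 to -0.99 over the alternative settings.

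Pdk4, which encodes a kinase that inhibits pyruvate dehydrogenase and so limits glucose oxidation, had values of the same sign. It ran from -1.38 to 0.02 with a median of -0.68 in sucrose perfused hearts, and was at -2.6, -1.61, -1.78, -1.93 and -2.14 in sucrose non-perfused hearts. The chow perfused arrays ran from -0.56 to 0.28 with a median of -0.21, and in chow non-perfused hearts it was at -2.39, -2.03, -1.84, -1.65 and -1.65. Perfused and non-perfused arrays did not overlap in either diet. Pdk4 rose by 1.26 (SE 0.19) in sucrose hearts and by 1.70 (SE 0.19) in chow hearts, and the interaction was -0.44 (SE 0.26, adjusted p = 0.859), with a negative value on each of the 4 slides.

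Ucp2, which encodes a mitochondrial carrier of the uncoupling protein family, was the gene of this list with the smallest p. It ran from 0.57 to 1.60 with a median of 1.00 in sucrose perfused hearts and was at 1.10, 1.35, 1.48, 0.63 and 0.97 in sucrose non-perfused hearts. Among chow perfused hearts the level ran from -0.35 to 0.46 with a median of 0.25, and in chow non-perfused hearts it was at 1.17, 1.13, 1.36, 1.56 and 0.08. The 10 perfused arrays of sucrose rats all lay above the 10 perfused arrays of chow rats, while the non-perfused arrays of the diets overlapped. The change was -0.07 (SE 0.19) in sucrose hearts, which did not pass, and -0.96 (SE 0.19, adjusted p = 0.000672) in chow hearts. The interaction was 0.89 with an interval from 0.33 to 1.45, an unadjusted p of 0.00313 and an adjusted p of 0.857, so it did not pass. It was positive on all 4 slides, from 0.61 to 1.21, and was 1.00 with mannitol and 0.78 with glucose. Choice of Ucp2 by p from the same arrays favours such a pattern, and 14.8% of all genes kept 1 sign on all 4 slides. Read the other way, the diet difference of Ucp2 was 0.92 in perfused hearts (adjusted p = 0.055) and 0.03 in non-perfused hearts (adjusted p = 0.998).

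**Figure D3:**
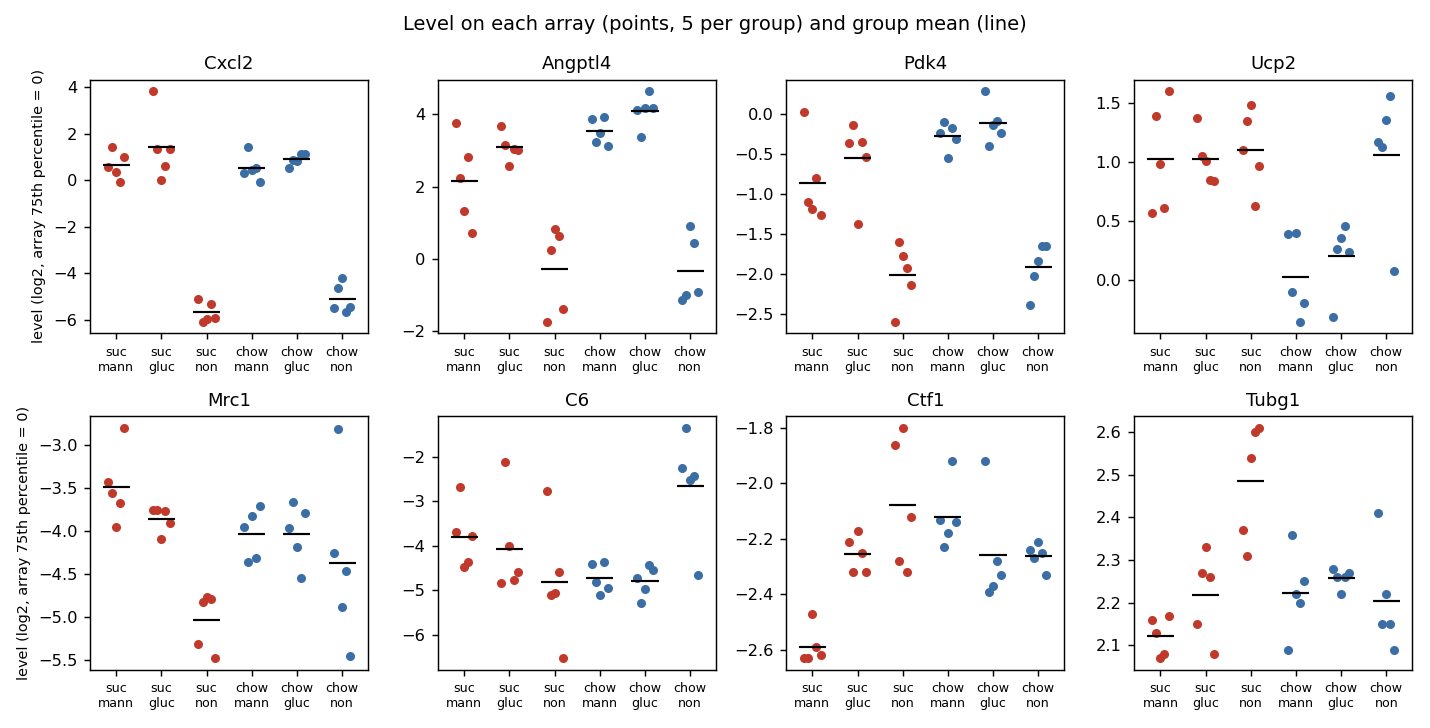
Level of 8 genes on each of the 30 arrays (log2, array 75th percentile at 0), with sucrose groups in red and chow groups in blue, 5 points per group and the group mean as a line (suc, sucrose; mann, mannitol; gluc, glucose; non, non-perfused). Ucp2 is lower in the chow perfused groups than in the other 4 groups, apart from 1 chow non-perfused array at 0.08, and Angptl4 is high in all perfused groups, reaching lower in sucrose mannitol hearts.

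Of 31 genes of glucose uptake and glycolysis, 2 rose and 1 fell in sucrose hearts, beside 8.01% and 8.83% of all genes. In chow hearts 3 rose and 0 fell, beside 7.65% and 7.6% of all genes. The list's median interaction was -0.02, and 29 of the 31 intervals lay within 1 log2 unit, beside 86.5% of all genes. Txnip, whose product inhibits glucose uptake and responds to glucose, was described by the buffers apart. It was at 3.13, 2.83, 2.99, 2.5 and 2.69 in sucrose mannitol hearts and at 4.22, 4.18, 3.46, 4.19 and 4.4 in sucrose glucose hearts, with sucrose non-perfused hearts at 3.45, 3.2, 3.85, 3.77 and 3.01. It was at 3.23, 3.13, 3.28, 3.35 and 3.24 in chow mannitol hearts and at 4.26, 4.26, 3.75, 4.06 and 4.14 in chow glucose hearts, with chow non-perfused hearts at 2.77, 3.45, 4.01, 3.63 and 3.48. The mannitol and glucose values stood on opposite sides of most non-perfused values in both diets, so that the buffer-averaged change was 0.00 in sucrose hearts and 0.21 in chow hearts. The pooled interaction was -0.21 (SE 0.23), made of -0.42 with mannitol and 0.01 with glucose, and the difference of 0.43 between the buffers did not pass (adjusted p = 0.811).

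Gfpt2, the enzyme gene at the entry of the hexosamine pathway, rose by 1.2 in sucrose hearts and 0.55 in chow hearts, with an interaction of 0.65 (SE 0.24, adjusted p = 0.857), or 0.23 without the 4 noisy arrays. Over 12 carbohydrate-responsive and hexosamine genes the median interaction was 0.03, against 0.25 in the authors' values and 0.08 without the 4 noisy arrays. The median over all genes in the authors' values was 0.088. Among 21 insulin signalling and FOXO genes, 6 rose and 3 fell in sucrose hearts and 4 rose and 1 fell in chow hearts, to be read beside the shares of all genes given for the fatty acid list. Their median interaction was -0.07, and 0.01 in the authors' values. Irs2, whose product relays the insulin signal, rose by 3.24 in sucrose hearts and 3.55 in chow hearts (interaction -0.32, SE 0.29). Akt1, a kinase downstream of the insulin receptor, was at a change of -0.13 in sucrose hearts and 0.15 in chow hearts without a call in either (interaction -0.28, SE 0.09, adjusted p = 0.857). Pik3r1, the regulatory subunit of phosphoinositide 3-kinase, fell by 0.26 in sucrose hearts and was at 0.04 in chow hearts (interaction -0.30, SE 0.12). Median interactions were -0.09 for 15 triglyceride turnover genes and -0.04 for 19 lipogenic and sterol genes. Cyp2e1, a cytochrome gene lower in sucrose hearts on average, had a diet difference of -0.77 in perfused hearts and -0.62 in non-perfused hearts, and so an interaction of -0.15 (SE 0.31).

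**Figure D4:**
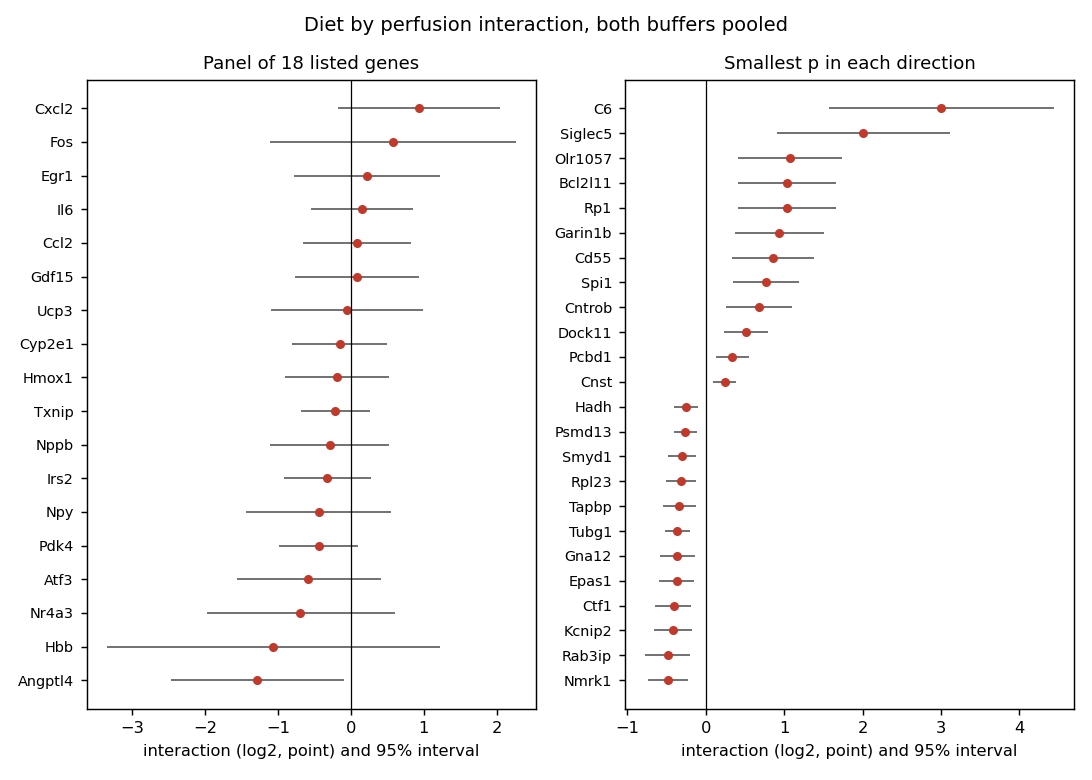
Pooled interaction (log2, point) with its 95% interval for a panel of 18 listed genes on the left and for the 12 symbols of smallest p in each direction on the right. None passed the adjusted threshold. The intervals of strong responders such as Fos (-1.11 to 2.26) are wide, and those of the negative genes on the right, such as Tubg1 (-0.52 to -0.20), are narrow.

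Genes with the smallest p-values were named by rule, 12 in each direction, and none of them passed (adjusted p from 0.523 to 0.857). On the positive side was C6, which encodes a component of the complement membrane attack complex. It ran from -4.84 to -2.12 with a median of -4.19 in sucrose perfused hearts, and was at -2.77, -5.10, -5.07, -4.59 and -6.53 in sucrose non-perfused hearts. In chow perfused hearts it ran from -5.29 to -4.36 with a median of -4.77, and in chow non-perfused hearts it was at -2.25, -1.35, -2.53, -2.44 and -4.66. The chow non-perfused arrays stood highest, 4 of the 5 at -2.53 or above. C6 was 0.87 (SE 0.49) higher with perfusion in sucrose hearts without a call and fell by 2.13 (SE 0.49) in chow hearts. The interaction of 3.00 (SE 0.70, unadjusted p = 0.000212, adjusted p = 0.685) is the difference between a diet difference of 0.83 in perfused hearts and one of -2.17 in non-perfused hearts, neither of which passed.

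The positive side also held Spi1, which encodes the myeloid transcription factor PU.1. It ran from -3.81 to -3.11 with a median of -3.56 in sucrose perfused hearts and was at -4.18, -4.26, -4.22, -3.57 and -4.69 in sucrose non-perfused hearts. It ran, in chow perfused hearts, from -4.00 to -3.23 with a median of -3.65, and in chow non-perfused hearts it was at -3.25, -2.82, -3.73, -4.10 and -3.49. The perfused arrays of both diets covered about the same range, and the sucrose non-perfused arrays were the lowest group. Spi1 rose by 0.63 in sucrose hearts and was at -0.14 in chow hearts (interaction 0.77, SE 0.20, adjusted p = 0.857). The diet difference was 0.10 in perfused hearts and -0.67 in non-perfused hearts, where 3 of 5 sucrose arrays were well above background. The estimate was 0.45 without the 4 noisy arrays, of which 2 are sucrose non-perfused and 1 is chow non-perfused. Siglec5, which encodes a sialic acid receptor of myeloid cells, passed the filter on low levels only through the chow non-perfused group, where its mean was highest. It was at -4.59, -3.99, -4.47, -5.16 and -4.6 in sucrose mannitol hearts, at -6.38, -5.17, -5.69, -6.58 and -3.76 in sucrose glucose hearts and at -5.27, -6.01, -7.07, -5.4 and -5.95 in sucrose non-perfused hearts. In chow hearts it was between -6.33 and -5.03 with mannitol and between -6.84 and -4.45 with glucose, against -4.58, -4.8, -4.36, -3.98 and -4.82 without perfusion. Only 1 of 5 arrays was well above background in each of the sucrose glucose, sucrose non-perfused, chow mannitol and chow glucose groups, so most of these levels lie at the limit of detection. Its estimate ran from 0.26 with normexp background correction to 2.33 over the settings that pool both buffers, and no size is read from it.

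Dock11, a guanine nucleotide exchange factor gene, rose by 0.45 in sucrose hearts and was at -0.07 in chow hearts. It ran from -2.78 to -2.04 in sucrose perfused hearts and from -2.65 to -2.12 in chow perfused hearts, which overlapped. It was at -3.06, -2.87, -2.65, -2.71 and -2.96 in sucrose non-perfused hearts and at -2.22, -2.31, -2.4, -2.44 and -2.62 in chow non-perfused hearts, and these groups did not overlap. Its interaction was 0.52 (SE 0.14) and its diet difference was 0.06 in perfused hearts and -0.46 in non-perfused hearts. The remaining positive genes were Cd55, which encodes an inhibitor of complement activation (0.86, SE 0.25), the proapoptotic gene Bcl2l11 (1.04, SE 0.30), Rp1 (1.03), Garin1b (0.94), Olr1057, Pcbd1 (0.34), Cntrob (0.68) and Cnst (0.24). Cntrob was at -0.18 in the authors' values and 0.27 without the 4 noisy arrays. With normexp background correction the estimates of several positive genes were much smaller, at 1.38 for C6, 0.28 for Spi1, 0.27 for Dock11, 0.41 for Cd55, 0.18 for Bcl2l11, 0.32 for Rp1, 0.14 for Garin1b, 0.45 for Cntrob and 0.14 for Cnst. Olr1057, named as an olfactory receptor gene, was not well above background on any chow glucose array, so no size is given for it.

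The negative genes had smaller and narrower values. Tubg1, which encodes gamma-tubulin of the centrosome, ran from 2.07 to 2.33 with a median of 2.16 in sucrose perfused hearts and was at 2.37, 2.31, 2.54, 2.6 and 2.61 in sucrose non-perfused hearts. Chow perfused hearts ran from 2.09 to 2.36 with a median of 2.25, and in chow non-perfused hearts it was at 2.41, 2.15, 2.22, 2.15 and 2.09. The sucrose non-perfused arrays stood above nearly all others, and the remaining groups overlapped. Tubg1 fell by 0.32 (SE 0.05) in sucrose hearts and was at 0.04 in chow hearts, and the interaction was -0.36 (SE 0.08, unadjusted p = 8.56e-05, adjusted p = 0.523). Nmrk1, which encodes a nicotinamide riboside kinase of NAD synthesis, fell by 0.42 in sucrose hearts and was at 0.06 in chow hearts (interaction -0.48, SE 0.12). It ran from -3.31 to -2.40 in sucrose perfused hearts, was between -2.59 and -2.36 in sucrose non-perfused hearts, ran from -2.76 to -2.37 in chow perfused hearts and was between -2.76 and -2.52 in chow non-perfused hearts. Sucrose perfused arrays reached lowest.

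Ctf1, the gene of the cytokine cardiotrophin, fell by 0.34 in sucrose hearts and was at 0.07 in chow hearts (interaction -0.41, SE 0.11). It was at -2.63, -2.63, -2.47, -2.59 and -2.62 in sucrose mannitol hearts, below every array of the other 5 groups, at -2.21, -2.32, -2.17, -2.25 and -2.32 in sucrose glucose hearts and at -1.86, -2.28, -1.8, -2.32 and -2.12 in sucrose non-perfused hearts. In chow hearts it ran from -2.39 to -1.92 with perfusion and was at -2.24, -2.27, -2.21, -2.25 and -2.33 without it. The interaction of Ctf1 was -0.65 with mannitol and -0.18 with glucose, and the difference between the buffers was 0.47 (unadjusted p = 0.00107, adjusted p = 0.356). Psmd13, a proteasome subunit gene, was at a change of -0.04 in sucrose hearts and rose by 0.22 in chow hearts. It ran from 0.89 to 1.24 in sucrose perfused hearts and from 0.99 to 1.16 in chow perfused hearts. It was at 0.97, 1.09, 1.06, 1.2 and 1.16 in sucrose non-perfused hearts and at 0.95, 0.83, 0.8, 0.84 and 0.92 in chow non-perfused hearts, where the groups did not overlap, and its interaction was -0.26 (SE 0.07).

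Of the other negative genes, Smyd1, which encodes a methyltransferase of muscle, fell by 0.34 in sucrose hearts and was at -0.03 in chow hearts (interaction -0.30, SE 0.09). Kcnip2, which encodes a subunit of the transient outward potassium channel, was at a change of -0.04 in sucrose hearts and rose by 0.38 in chow hearts (interaction -0.42, SE 0.12). Hadh, an enzyme gene of beta oxidation, fell by 0.23 in sucrose hearts and was at 0.03 in chow hearts (interaction -0.25, SE 0.08). Epas1, which encodes a hypoxia-inducible factor subunit, fell by 0.39 in sucrose hearts and was at -0.01 in chow hearts (interaction -0.37, SE 0.11). Rpl23 (-0.32), Rab3ip (-0.48), the antigen-loading gene Tapbp (-0.34) and Gna12 (-0.36) completed the 12. Hadh was at -0.13 with quantile normalization and -0.14 in the authors' values. Rpl23 was at -0.21 with quantile normalization, and Tapbp and Gna12 were both at -0.22 with normexp background correction. Other values that moved by over 1.5 times were those of Tubg1 (-0.23), Tapbp (-0.18) and Gna12 (-0.19) in the authors' values, and of Nmrk1 (-0.30) without both the 4 noisy arrays and the array alone on its slide. All 12 negative genes were negative on each of the 4 slides, and the 12 positive genes were positive on each of them apart from Bcl2l11, with 3 of 4. Choice by p from the same arrays favours such a pattern.

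Gene lists were described by their counts and medians beside the same over all genes, for which the median interaction was -0.006 and 48.4% of values were positive. No list held a called gene. Macrophage markers stood furthest above 0 among the lists of 8 or more measured genes. Of 12 measured markers, 11 had a positive interaction and the median was 0.32. In sucrose hearts 8 of the 12 rose and in chow hearts 1 of the 12 rose, beside 8.01% and 7.65% of all genes, with a median change of 0.39 in sucrose hearts and 0.07 in chow hearts. The median diet difference of the 12 markers was 0.15 in perfused hearts and -0.19 in non-perfused hearts. The median interaction was 0.39 with mannitol and 0.29 with glucose.

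Lyve1, a hyaluronan receptor gene of resident macrophages and lymphatic vessels, ran from -1.09 to -0.26 with a median of -0.90 in sucrose perfused hearts and was at -1.05, -1.47, -1.41, -1.58 and -1.79 in sucrose non-perfused hearts. The chow perfused arrays ran from -1.32 to -0.65 with a median of -0.86, and in chow non-perfused hearts it was at -0.67, -1.35, -0.76, -0.49 and -1.24. The sucrose non-perfused arrays were the lowest group, and perfused arrays of both diets overlapped. Lyve1 rose by 0.64 in sucrose hearts and was at -0.03 in chow hearts (interaction 0.67, SE 0.21, unadjusted p = 0.0031, adjusted p = 0.857), with a negative value on 1 of the 4 slides. Mrc1, the mannose receptor gene of the same cells, ran from -4.09 to -2.8 with a median of -3.75 in sucrose perfused hearts and was at -5.31, -4.82, -4.77, -4.79 and -5.48 in sucrose non-perfused hearts, without overlap. Among chow perfused hearts the level ran from -4.55 to -3.66 with a median of -3.96, and in chow non-perfused hearts it was at -4.25, -2.81, -4.88, -4.46 and -5.46. One chow non-perfused array, replicate 2 at -2.81, stood far above the rest of that group, and it is one of the 4 noisy arrays. Mrc1 rose by 1.37 in sucrose hearts and was at 0.34 in chow hearts (interaction 1.03, SE 0.37), but the interaction was 0.29 without those 4 arrays.

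Cd163, a scavenger receptor gene, rose by 0.61 in sucrose hearts and was at 0.08 in chow hearts (interaction 0.54, SE 0.23). The complement genes C1qa and C1qb rose by 0.37 and 0.39 in sucrose hearts and were at 0.02 and 0.00 in chow hearts, with interactions of 0.36 and 0.39. Csf1r, the receptor gene of the macrophage growth factor, rose by 0.35 in sucrose hearts and was at 0.06 in chow hearts (interaction 0.29, SE 0.14). Adgre1, an adhesion receptor gene of macrophages, rose in both diets, by 0.68 in sucrose hearts and 0.54 in chow hearts (interaction 0.14, SE 0.19). Cd68 had an interaction of 0.03, and Fcgr3a was the negative member at -0.80 (SE 0.60). The summed level of the 12 markers on the log2 scale was between 3.89 and 4.39 on the sucrose perfused arrays and between 3.53 and 4.15 on the sucrose non-perfused arrays, with a median of 3.59. It was between 3.80 and 4.19 on the chow perfused arrays and between 3.57 and 4.25 on the chow non-perfused arrays, with a median of 4.09. All 4 ranges overlapped. Without the 4 noisy arrays, 7 of the 12 rose in sucrose hearts and 2 in chow hearts, beside 5.59% and 6.69% of all genes in that fit. All 12 interactions were then positive and the median was 0.42. In these bulk samples, fewer cells of a type and less RNA per cell cannot be told apart.

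**Figure D5:**
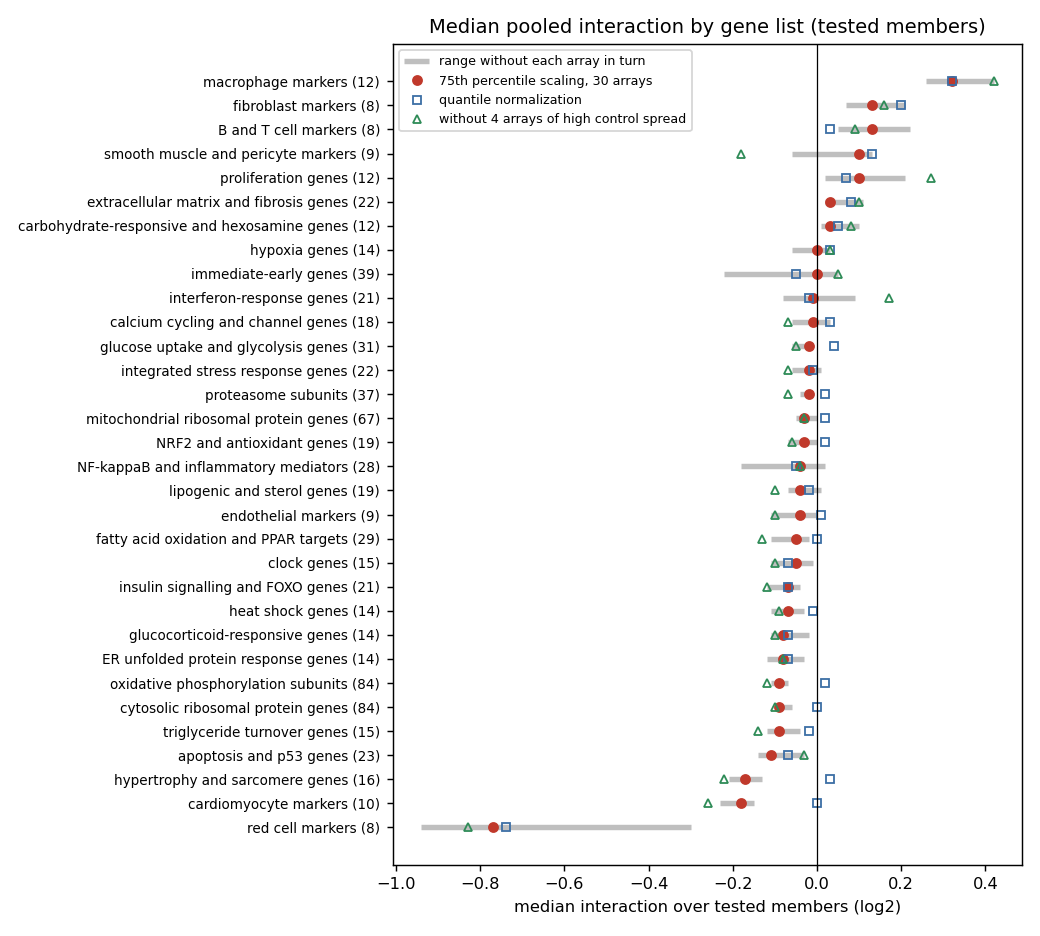
Median pooled interaction (log2) of the lists with 8 or more measured genes (number in brackets), with 75th percentile scaling in red, quantile normalization as squares, values without the 4 noisy arrays (those of high control spread) as triangles, and the range without each array in turn as a grey bar. Macrophage markers lie at 0.32 and red cell markers at -0.77, and the cardiomyocyte, sarcomere, ribosomal and oxidative phosphorylation lists lie below 0 with the first scaling but between 0.00 and 0.03 with quantile normalization.

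Red cell markers fell in both diets, 7 of 8 in each, beside 8.83% of all genes in sucrose hearts and 7.6% in chow hearts. Their median change was -7.05 in sucrose hearts and -6.34 in chow hearts. Their median interaction was -0.77, and between -0.94 and -0.30 when each array was left out in turn. Their summed level ran from 2.60 to 4.48 on the sucrose perfused arrays and from 9.20 to 9.92 on the sucrose non-perfused arrays. It ran from 2.97 to 6.69 on the chow perfused arrays, whose mannitol group held the highest value, and from 9.23 to 9.86 on the chow non-perfused arrays. The beta-globin gene Hbb changed by -8.80 in sucrose hearts and -7.74 in chow hearts (interaction -1.06, SE 1.11, adjusted p = 0.935). Npy, which encodes neuropeptide Y of sympathetic nerves, changed by -4.59 in sucrose hearts and -4.15 in chow hearts (interaction -0.44, SE 0.48). Median interactions were 0.28 for 6 neutrophil markers, none of which was above background on all 30 arrays, 0.22 for 5 platelet markers and 0.13 for 8 B and T cell markers. With normexp background correction these were -0.03, 0.07 and -0.01, and without the 4 noisy arrays 0.14, 0.04 and 0.09. The neutrophil median ran from 0.09 to 0.43 on leaving out each array. They were -0.04 for 9 endothelial markers, 0.13 for 8 fibroblast markers and 0.10 for 9 smooth muscle and pericyte markers (-0.18 without the 4 noisy arrays). For 4 mesothelial markers the median was 0.58, and between 0.04 and 0.99 when each array was left out in turn. In the endothelial list Cldn5, a tight junction gene, rose by 1.59 in sucrose hearts and 2.00 in chow hearts (interaction -0.41, SE 0.16). Flt1, a receptor gene for vascular endothelial growth factor, rose by 0.49 in sucrose hearts and 0.78 in chow hearts (interaction -0.29, SE 0.11).

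Lists of abundant heart transcripts lay slightly below 0, but not with quantile normalization. Among 10 cardiomyocyte markers 0 were positive, and the median was -0.18. It was 0.00 with quantile normalization and -0.01 in the authors' values, where the median over all genes was 0.088. For 16 hypertrophy and sarcomere genes the median was -0.17, against 0.03 with quantile normalization. Of 84 cytosolic ribosomal protein genes 16 were positive, with a median of -0.09. The median was 0.00 with quantile normalization and 0.04 in the authors' values, below the 0.088 of all genes there. In that list 29 fell in sucrose hearts and 5 fell in chow hearts, beside 8.83% and 7.6% of all genes. Of 84 oxidative phosphorylation subunits 15 were positive, with a median of -0.09, against 0.02 with quantile normalization. Here 31 fell in sucrose hearts and 9 fell in chow hearts. The brightest class of genes had a median interaction of -0.037, against 0.004 with quantile normalization, a shift of the same direction. The dimmest class had a median of 0.071, against -0.016 with quantile normalization. Among the lists not yet given, medians were -0.08 for 14 glucocorticoid-responsive genes, -0.11 for 23 apoptosis and p53 genes, 0.10 for 12 proliferation genes, 0.03 for 22 extracellular matrix genes, -0.03 for 67 mitochondrial ribosomal protein genes and -0.02 for 37 proteasome subunits. They were 0.00 for 14 hypoxia genes, -0.03 for 19 antioxidant genes, -0.01 for 21 interferon-response genes and -0.01 for 18 calcium cycling and channel genes. The macrophage median was 0.32 with both scalings and 0.44 in the authors' values, where the median over all genes was 0.088.

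The interaction was also computed for each buffer alone, with the non-perfused arrays shared between them. With mannitol, 0 of 18333 genes passed (0% called, limma), with a smallest adjusted p of 0.112 and 1505 genes (8.21%) at an unadjusted p under 0.05. With glucose, where slide rows were balanced between the diets, 0 passed (0% called), with a smallest adjusted p of 0.999 and 743 genes (4.05%) at an unadjusted p under 0.05. In the mannitol groups row cannot be told apart from diet except through 1 array. The difference of the interaction between the buffers, in which the non-perfused arrays cancel, also gave 0 calls (0% called), with a smallest adjusted p of 0.0537 and 1260 genes (6.87%) at an unadjusted p under 0.05. Prr13 had an interaction of 0.54 with mannitol and -0.09 with glucose, and its difference of -0.62 had an adjusted p of 0.214. With array weights Prr13 was called for that difference. Twnk, which encodes the mitochondrial DNA helicase, had -0.53 with mannitol and -0.07 with glucose. Erbb2, a receptor gene of neuregulin signalling in heart muscle, had 0.07 with mannitol and 0.58 with glucose (difference 0.51, adjusted p = 0.556).

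The same contrast can be read as the diet difference in perfused hearts minus that in non-perfused hearts. The diet difference in perfused hearts gave 0 calls of 18333 (0% called, limma), with a smallest adjusted p of 0.055 and 1808 genes (9.86%) at an unadjusted p under 0.05. Up to 11 genes were called for it in an alternative setting. Over 45 settings, which share most of their arrays, Ucp2 was called in 16 and Acot1, an acyl-CoA thioesterase gene, in 13. That in non-perfused hearts gave 0 calls (0% called), with a smallest adjusted p of 0.274 and 913 genes (4.98%) at an unadjusted p under 0.05. The interval lay within 1 log2 unit for 97.6% of genes in perfused hearts and for 92% in non-perfused hearts.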

How the data were processed

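Each array was deposited as a one-colour Agilent Feature Extraction table. Per the file headers the software was version 11.0.1.1, and the submitters' processing notes give 10.3. It holds, per the file headers, an intensity for each spot from which background and spatial trend were removed by the authors' software. The deposited series table holds log2 values that followed the log2 background-subtracted signal of each array, and its scaling between arrays is not given in the sources used here.

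Here outlier spots were left out, spots of a probe averaged, logarithms to base 2 taken and the 75th percentile of the array set to 0. Probes were named through transcript accessions and RefSeq gene names of assembly GRCr8, which matched 18355 of 30367 probes (60.4%). No probe was saturated. The brightest probe stood for a gene, and was kept where some group had 4 or more of its 5 arrays well above background. Means of 6 groups were fitted with limma 3.58.1 in R 4.3.3, with slide as a random block (consensus correlation 0.211), and p-values of each contrast were adjusted by the Benjamini-Hochberg method over 18333 genes. Intervals are 95% and cover the spread between arrays. The number of arrays limits the precision.

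The contrast, the 41 gene lists and the genes named were chosen with earlier results of these data known. Genes named were the 12 smallest p-values with a symbol in each direction, a panel of 18, the 2 smallest p-values of each list, and the 3 smallest in each direction for the buffers and their difference. Other genes given in the macrophage, insulin and fuel lists, and Eid3, Hbe2, Slc7a5 and Nupr1, were picked after their values were seen. The calculation was tested on simulated data. Alternatives were other scalings, background correction, filters, blocks and probe rules, weights, and leaving out arrays. Replicate numbers did not pair the arrays: residuals of arrays of different groups correlated at -0.037 on average where the number was shared and at 0.01 where it was not, against 0.204 for a shared slide.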

Additional observations from a re-analysis of the deposited data

Results flagged for a closer look

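Of the 96 groups of 5 arrays behind the 16 genes shown array by array, 5 held an array far from the other 4 by Dixon's test, and chance flags about 1 in 20 groups. Txnip was at 3.46 on sucrose glucose replicate 3, the lowest of its group, where the nearest other array was at 4.18. Ucp2 was at -0.31 on chow glucose replicate 1, where the nearest other array was at 0.24. Ctf1 was at -2.47 on sucrose mannitol replicate 3, above the nearest at -2.59, and at -1.92 on chow glucose replicate 1, above the nearest at -2.28. Lyve1 was at -0.26 on sucrose glucose replicate 2, above the nearest at -0.94. None of these 5 arrays is among the 4 noisy ones.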

How the results depend on the processing

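The pooled interaction, the glucose interaction, the diet difference in non-perfused hearts and the gene lists gave 0 calls in every one of the 45 settings run. Pooled unadjusted p-values under 0.05 numbered from 281 (1.53%, authors' values) to 1275 (without chow non-perfused replicate 5). With a replicate block, which the replicate numbers do not justify, the pooled interaction kept 0 calls and the difference between the buffers gave 1. That difference gave 6 calls with array weights and 0 to 1 when each array was left out, with 1 without sucrose mannitol 4, sucrose glucose 1, sucrose non-perfused 2 or 5, chow mannitol 3 or chow glucose 5. The mannitol interaction gave 0 to 1 calls on leaving out each array, with 1 without sucrose non-perfused replicate 1 or chow non-perfused replicate 5. The diet difference in perfused hearts gave 11 calls with normexp, 2 in the authors' values, 8 with genes above background on all 30 arrays, 8 with the trend and robust options, 7 with array weights, 6 without the array alone on its slide, 1 without the 4 noisy arrays and 0 to 6 on leaving out each array. The arrays whose removal gave calls there were sucrose mannitol 1 and 4, sucrose glucose 5, sucrose non-perfused 1 and 4, chow mannitol 3, 4 and 5 and chow non-perfused 1, 2, 4 and 5. Ucp2 was called there in 16 of the 45 settings and Acot1 in 13, of which 10 and 7 left out each array in turn. The array alone on its slide is sucrose mannitol replicate 1, so its removal counts under both kinds of setting. Sucrose perfusion calls numbered 818 in the authors' values, 1923 without the 4 noisy arrays (those of high control spread), 1913 without these and the lone array (a setting added after the data were seen) and 2415 to 3212 on leaving out each array. Chow perfusion calls numbered 750 in the authors' values and 2349 to 2899 on leaving out each array. The median correlation of the interaction between slides was -0.05 to 0.075 on leaving out each array. Without the 4 arrays, with or without the lone array, only slides 2 and 4 held all groups, and the value of 0.127 is that single pair's, the same as with all arrays. Intervals within 1 log2 unit numbered 15469 to 15891 on leaving out each array, and in the other settings from 12192 (genes above background on all 30 arrays, where fewer were tested) to 17914 (normexp). For the pooled interaction, 23 of 126 named genes changed sign in at least 1 setting and none passed in any. The causes were not tested. A fit with slide row was not run, since for the pooled contrast it would rest on 1 array.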
